A study of Mus musculus with 64 samples.

Results

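A set of 10 genes that respond to glucocorticoids was followed through the day in adipose tissue of mice with and without NAMPT, the enzyme that makes nicotinamide mononucleotide for NAD+ synthesis. The genes were a list of 10 symbols, looked up by Ensembl identifier among the 52636 genes of the count table. They were the receptor *Nr3c1*, the hormone-activating enzyme gene *Hsd11b1*, and the receptor targets *Fkbp5*, *Tsc22d3*, *Zbtb16*, *Sgk1*, *Klf9*, *Dusp1*, *Mt1* and *Mt2*. All 10 were among the 20249 genes with enough counts to be tested, and each had counts in all 64 samples.

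Corticosterone, the main glucocorticoid of the mouse, is released by the adrenal gland in a daily wave that climbs in the late light phase, ahead of the active dark phase. In the target cell it binds the glucocorticoid receptor, which leaves its chaperones, enters the nucleus and binds response elements near target genes, many of which are switched on within hours. Adipocytes carry the receptor, and glucocorticoids act on their lipolysis, their differentiation and, in brown fat, their thermogenesis. The comparisons ask whether transcripts listed as responsive to this systemic signal keep a daily rhythm, and their level, in fat depots whose adipocytes lack NAMPT. Corticosterone itself was not measured in these data.

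Promoter stretches of 3 genes are printed because 2 of these genes, *Mt1* and *Mt2*, had rhythms that differed between genotypes in brown fat, and because *Sgk1* had the only full receptor palindrome found among the members. They run from 250 bases before to 30 bases after a transcription start of RefSeq on GRCm38.p6, all on the plus strand, with matches to the motif in capitals. *Mt1* is chr8:94178839-94179118 and *Mt2* is chr8:94172368-94172647, with the metal response element (TGCACNC or TGCGCNC, either strand) in capitals, the site of the zinc-sensing factor MTF1. *Sgk1* is chr10:21993640-21993919, with the glucocorticoid response element in capitals, a palindrome of AGAACA and TGTTCT with 3 free bases between.
Mt1: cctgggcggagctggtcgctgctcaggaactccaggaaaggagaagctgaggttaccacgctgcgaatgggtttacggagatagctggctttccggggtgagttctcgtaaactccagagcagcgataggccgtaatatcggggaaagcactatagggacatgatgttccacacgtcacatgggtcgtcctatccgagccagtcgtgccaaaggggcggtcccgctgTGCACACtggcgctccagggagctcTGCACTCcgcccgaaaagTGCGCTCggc
Mt2: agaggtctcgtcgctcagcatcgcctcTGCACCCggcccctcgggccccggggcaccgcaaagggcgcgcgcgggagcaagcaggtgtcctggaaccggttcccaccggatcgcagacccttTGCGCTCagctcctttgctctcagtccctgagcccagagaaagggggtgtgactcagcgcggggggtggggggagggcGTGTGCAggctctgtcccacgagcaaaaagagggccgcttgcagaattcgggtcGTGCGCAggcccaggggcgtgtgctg
Sgk1: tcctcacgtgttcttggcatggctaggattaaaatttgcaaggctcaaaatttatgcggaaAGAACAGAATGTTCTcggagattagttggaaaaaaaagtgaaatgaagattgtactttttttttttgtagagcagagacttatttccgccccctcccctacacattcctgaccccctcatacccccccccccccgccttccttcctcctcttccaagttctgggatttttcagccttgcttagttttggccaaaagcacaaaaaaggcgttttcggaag
RefSeq gave 15 windows for 8 of the 10 members, 6 of them for *Sgk1*, and each was searched over 250 bases before and 50 after the start. The *Sgk1* palindrome began 189 bases before the start in 1 of its 6 windows, and the same palindrome was present in 0.00913% of all 32851 windows. That window also held 3 matches to AGAACA alone on either strand, including those inside the palindrome, and 19.0% of all windows held at least 1. The *Mt1* window had 3 metal response elements and the *Mt2* window 4, a number of 3 or more that occurred in 1.97% of windows. An E-box (CACGTG, the site of CLOCK and BMAL1, a palindrome that reads alike on both strands) was present in the *Fkbp5* and *Dusp1* windows and in 1 of the *Sgk1* windows, beside 7.15% of all windows. These are matches of letters in short windows, and receptor binding was not measured.

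The depots sequenced were brown fat (BAT) and epididymal white fat (eWAT) from male mice, 2 to 4 months old, at Zeitgeber times (ZT) 6 and 10 in the light phase and ZT 18 and 22 in the dark phase, where ZT 0 is lights on. FANKO mice carried the floxed *Nampt* tm1Jtree allele with Adiponectin-Cre, and the WT mice were their littermate controls from the same cross. There were 16 combinations of these factors with 4 samples in each. Adiponectin-Cre acts in adipocytes, brown and white, so vascular, stromal and immune cells of FANKO depots keep *Nampt*, and a bulk depot mixes all of them. *Nampt* itself was lower in FANKO mice by 2.31 on the log2 scale in BAT, where no FANKO sample reached a WT sample, and by 0.50 in eWAT, where the samples overlapped. By time point, *Nampt* in eWAT differed by −0.03 at ZT 6 (mean 119 CPM in WT and 117 in FANKO mice) and −0.25 at ZT 10, neither called, and by −1.11 at ZT 18 and −0.59 at ZT 22, both called. These counts cover the whole gene, of which only a part is floxed, so they do not measure intact transcript. The authors reported markedly reduced NAD+ in both FANKO depots. Library totals over all genes ran from 6117343 to 30544847 counts. Values are CPM, that is TMM-normalized counts relative to library size, and calls were made by edgeR's quasi-likelihood test at a false discovery rate of 0.01 over all genes tested. The labels name replicates by number only, so the p values describe the spread between these samples. The brown markers *Ucp1*, *Cidea*, *Elovl3* and *Ppargc1a* summed to a median of 6650 CPM in WT BAT and 13.2 in WT eWAT, and the white markers *Lep*, *Retn*, *Nnat* and *Trim29* to 88.5 and 2770 CPM.

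The samples numbered 4 in the WT group at ZT 18 stood apart in the genes described here. In BAT at ZT 18, WT replicate 4 was the highest of the 4 samples for 8 of the 10 members (27.7% of all genes tested) and more than 2-fold above the next sample for 4 of them, *Fkbp5*, *Tsc22d3*, *Zbtb16* and *Klf9* (1.06% of all genes). In eWAT at the same time, WT replicate 4 was the highest for 6 of 10 (34.6% of all genes) and more than 2-fold above the next for *Zbtb16* and *Dusp1* (1.10%). Among 28 further glucocorticoid targets it was more than 2-fold above the next sample for 14 in BAT and 7 in eWAT, and for 0 of 12 hormone-handling genes and 0 of 14 immediate early genes in either depot. It was the highest of the 4 for 24 further targets in BAT and 22 in eWAT. The same held for 4 and 9 of the hormone-handling genes and for 5 and 9 of the immediate early genes. *Per1*, a clock gene that the receptor also induces, is an example picked after its values were seen. It stood at 52.5 CPM in that BAT sample against 8.45 to 9.16 in the other 3, and at 46.6 against 11.6 to 18.1 in eWAT. Over the 15228 genes used for this check, 1.22% stood more than 2-fold above the next sample in the BAT library and 1.12% in the eWAT library, beside 0 to 1.60% (median 0.0657%) in the other 62 libraries. Replicate 2 of WT eWAT at ZT 6 held the 1.60% and was left out only together with every other replicate 2. Because WT ZT 18 replicate 4 stood out in the genes described here, results were also computed without it in both depots. This choice was made after the data were seen. The values without it, or counts of calls, are given where they end or add a call or move a value by much.

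In WT BAT most glucocorticoid targets followed the time of day, with *Fkbp5*, *Tsc22d3* and *Zbtb16* highest at ZT 18 and *Mt1*, *Mt2* and *Sgk1* highest in the light phase. A cosine rhythm was called for 7 of the 10 members in WT BAT (13.9% of all genes tested), namely *Fkbp5*, *Tsc22d3*, *Zbtb16*, *Sgk1*, *Mt1*, *Mt2* and *Dusp1*. In FANKO BAT the call was made for 2 of 10, *Sgk1* and *Mt1* (2.84% of all genes). The direct test of the rhythms between genotypes called 4 of 10 in BAT, *Fkbp5*, *Zbtb16*, *Mt1* and *Mt2* (2.76% of all genes). Amplitude, the difference between the highest and the lowest time-point mean in log2 CPM, was lower in FANKO than in WT BAT for 9 of the 10 members, all but *Klf9* (64.2% of all genes). Its median over the members was 1.55 in WT and 0.68 in FANKO BAT, beside 0.43 and 0.33 over all genes tested. When WT ZT 18 replicate 4 was left out, rhythms were called for 8 members in WT BAT (14.7% of all genes) with *Klf9* added, for 4 in FANKO BAT (3.99%) with *Tsc22d3* and *Klf9* added, and for the difference in 3 (3.62%), with *Zbtb16* lost.

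**Figure D1:**
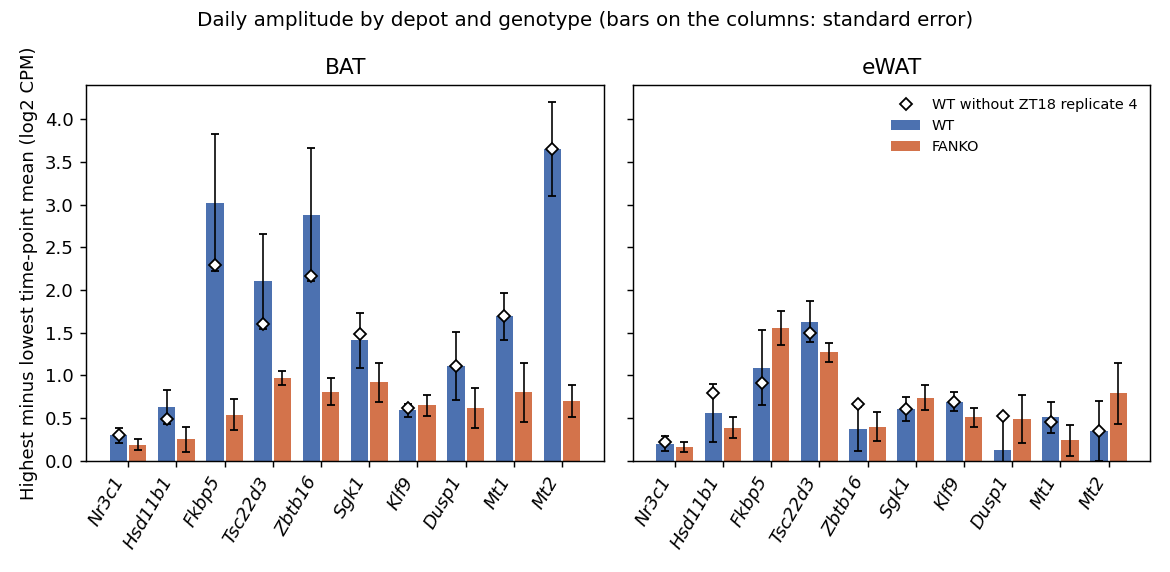
Daily amplitude, the highest minus the lowest time-point mean in log2 CPM, of each member in BAT (left) and eWAT (right), for WT (blue) and FANKO (orange), with the standard error from the replicates behind those means. Open diamonds give WT without ZT 18 replicate 4. In BAT 9 of 10 FANKO columns are shorter than their WT columns, and in eWAT 5 of 10.

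*Fkbp5*, a co-chaperone that the receptor induces and that in turn lowers the receptor's affinity for hormone, had a deep trough in WT BAT. At ZT 6 the WT samples held 2.84, 4.11, 4.06 and 3.14 CPM, at ZT 10 they held 19.5, 10.8, 12.2 and 11.3. In the dark phase the WT values were 29.5, 10.6, 17.3 and 134 CPM at ZT 18 and 6.23, 6.78, 7.53 and 8.19 at ZT 22. All ZT 6 samples lay below all samples of the other 3 times, and the ZT 18 mean rested in large part on replicate 4. FANKO BAT held 12.1, 11.7, 8.07 and 13.7 CPM at ZT 6, 18.9, 14.9, 15.6 and 16.1 at ZT 10, 10.1, 14.8, 14 and 16 at ZT 18, and 11.9, 12.6, 16.9 and 14.9 at ZT 22. The FANKO samples thus stayed within a narrow band all day, above every WT sample at ZT 6 and ZT 22 and overlapping with the WT samples at ZT 10 and ZT 18. The amplitude was 3.02 ± 0.80 (SE) in WT, an 8.10-fold difference between ZT 18 and ZT 6, and 0.54 ± 0.18 in FANKO BAT, and the rhythms differed (edgeR, adjusted p = 3.8e-05). Without replicate 4 the WT amplitude was 2.29 ± 0.44, or 4.88-fold, and the rhythms still differed (adjusted p = 0.000687). The difference was not called when replicate 4 of every group was left out (adjusted p = 0.0143). At ZT 6 *Fkbp5* was 3.30-fold higher in FANKO BAT (log2 1.72 ± 0.46, adjusted p = 0.00109). At ZT 18 it was lower by 1.78 on the log2 scale (adjusted p = 6.1e-05), a call that was lost without replicate 4 (log2 −0.47, adjusted p = 0.155).

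*Tsc22d3*, which encodes the anti-inflammatory leucine zipper protein GILZ, had its lowest and highest times in common between the genotypes of BAT. WT BAT held 46.3, 27.8, 35.6 and 23.5 CPM at ZT 6, 78.2, 85, 78.9 and 61.7 at ZT 10, 126, 90.3, 82.2 and 387 at ZT 18, and 58.6, 42.7, 46.5 and 77 at ZT 22. FANKO BAT held 32.7, 33.6, 33.8 and 34 CPM at ZT 6, 63.9, 57.9, 38.6 and 60 at ZT 10, 63.3, 74.5, 57.5 and 69.7 at ZT 18, and 43.9, 44.2, 38.8 and 51.4 at ZT 22. Both genotypes were lowest at ZT 6 and highest at ZT 18, and only at ZT 18 did every FANKO sample lie below every WT sample. The amplitude was 2.10 ± 0.56 in WT and 0.97 ± 0.08 in FANKO BAT, and the difference of the rhythms was not called (adjusted p = 0.0332, and 0.361 without replicate 4). The FANKO rhythm was itself called only without that sample (adjusted p = 0.0247 with it and 0.00073 without).

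*Zbtb16*, which encodes the zinc-finger repressor PLZF, resembled *Fkbp5* in BAT, but its called difference was lost when 1 library was left out. In WT BAT it held 7.17, 7.23, 9.29 and 6.19 CPM at ZT 6, 49.1, 27.8, 27.6 and 32.9 at ZT 10, 23.8, 52.6, 29.1 and 255 at ZT 18, and 25.8, 17.3, 66.1 and 34.7 at ZT 22. In FANKO BAT the values were 10.6, 12.4, 10.4 and 11.8 CPM at ZT 6, 26.2, 16.1, 17.8 and 20.6 at ZT 10, 13.6, 20.3, 18.4 and 13.9 at ZT 18, and 18.5, 19.4, 17.1 and 15.5 at ZT 22. FANKO samples lay above all WT samples at ZT 6, below all of them at ZT 10 and ZT 18, and overlapped with them at ZT 22. The amplitude was 2.88 ± 0.78 in WT BAT, 2.16 ± 0.23 without replicate 4, when ZT 10 was the highest time, and 0.81 ± 0.16 in FANKO BAT. The rhythms differed with all samples (adjusted p = 0.00435) and not without replicate 4 (adjusted p = 0.108), although the WT rhythm itself was called both ways (3.7e-08 and 0.000185). The difference was also not called without replicate 2 or 4 of every group (adjusted p = 0.0387 and 0.442) or with limma-voom (0.102).

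**Figure D2:**
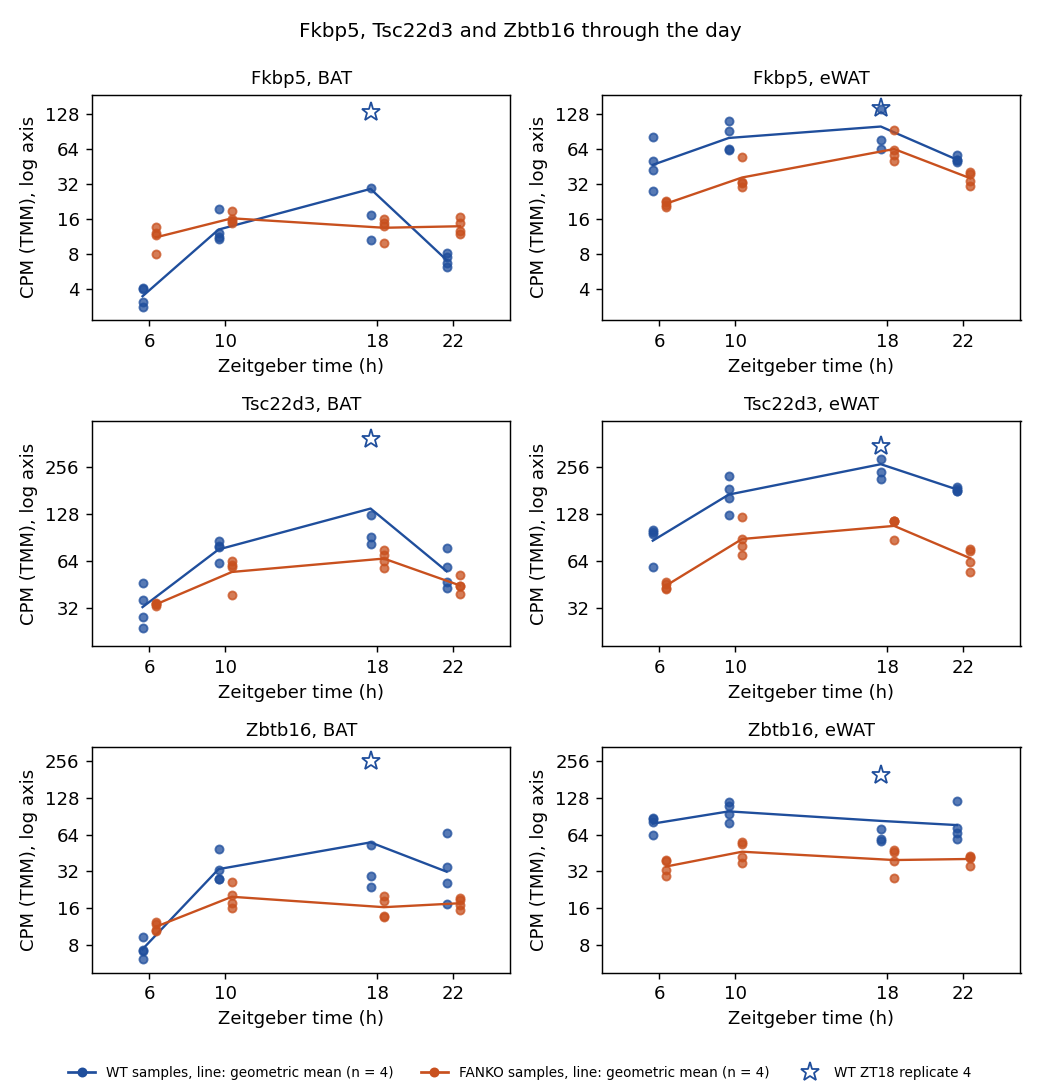
CPM of *Fkbp5*, *Tsc22d3* and *Zbtb16* (log axis) against Zeitgeber time in hours in BAT (left) and eWAT (right). Points are samples, 4 per genotype and time, lines join geometric means, and the star marks WT ZT 18 replicate 4, which held 134, 387 and 255 CPM of the 3 genes in BAT.

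The metallothioneins *Mt1* and *Mt2*, small zinc- and copper-binding proteins, were highest in the light phase in WT BAT, and in FANKO BAT their light-phase levels were several-fold lower. *Mt2* held 12.7, 21.5, 21.2 and 39.3 CPM at ZT 6, 14.7, 12.5, 28.9 and 32.5 at ZT 10, 3.92, 2.15, 2.11 and 7.43 at ZT 18, and 1.04, 0.887, 2.01 and 3.7 at ZT 22 in WT BAT. Each light-phase sample was above each dark-phase sample. In FANKO BAT *Mt2* held 1.48, 2.21, 4.11 and 2.51 CPM at ZT 6, 4.21, 2.9, 4.81 and 3.5 at ZT 10, 4.4, 1.75, 3.2 and 4.17 at ZT 18, and 2.86, 2.29, 2.13 and 1.93 at ZT 22. All FANKO samples were thus below all WT samples at ZT 6 and ZT 10 and overlapped with them in the dark phase. The WT amplitude was 3.65 ± 0.55, a 12.5-fold difference between ZT 6 and ZT 22, against 0.70 ± 0.19 in FANKO BAT (rhythm difference, edgeR adjusted p = 4.8e-06). *Mt2* was 9.31-fold lower in FANKO BAT at ZT 6 (log2 −3.22 ± 0.39, adjusted p = 3.1e-10) and 5.65-fold lower at ZT 10 (−2.50 ± 0.37, 7.4e-08). At ZT 22 the log2 difference was 0.17 ± 0.46 (adjusted p = 0.787). Of the exonic bases of *Mt2*, 73.5% are shared with the antisense gene *Gm45774* on the opposite strand, and the strand setting of the counting is not given in the sources used here, so the counts of *Mt2* are uncertain to that extent.

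*Mt1* shared no exonic bases with another gene and changed less over the day. WT BAT held 140, 189, 168 and 252 CPM at ZT 6, 192, 193, 251 and 277 at ZT 10, 125, 93.8, 93.8 and 195 at ZT 18, and 56.3, 53.6, 70.4 and 113 at ZT 22. FANKO BAT held 18.6, 36.6, 39.9 and 32.7 CPM at ZT 6, 56.8, 52.2, 47.8 and 47.3 at ZT 10, 85.3, 43.8, 40.7 and 54.4 at ZT 18, and 38.8, 27.6, 24.8 and 35.9 at ZT 22. FANKO samples lay below all WT samples at every time point, by 5.86-fold at ZT 6 and 2.31-fold at ZT 22. The fitted peak of the WT samples was at ZT 10.7 and that of the FANKO samples at ZT 14.2, with fitted peak-to-trough amplitudes of 1.65 and 1.5 log2 units, and the rhythms differed (adjusted p = 0.00119). The time-point means gave amplitudes of 1.69 ± 0.28 and 0.80 ± 0.34. The difference of rhythms was not called without replicate 1, 2 or 3 of every group (adjusted p = 0.0513, 0.0136 and 0.0141), and the FANKO rhythm (adjusted p = 0.00532) was not called without them either (0.144, 0.0236 and 0.0153).

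*Sgk1*, a kinase induced by glucocorticoids and serum, and *Dusp1*, a phosphatase that switches off MAP kinases, gave no called difference of rhythm in BAT (adjusted p = 0.118 and 0.134). *Sgk1* ranged from 42.7 to 113 CPM in the light phase and from 19.2 to 39.1 in the dark phase in WT BAT, and the light-phase values did not overlap with the dark-phase ones. In FANKO BAT its light-phase range of 32.1 to 68.7 CPM overlapped with the dark-phase range of 24.3 to 59.3, and the rhythm was called (adjusted p = 0.00695, and 1.4e-07 in WT). The FANKO call was lost without replicate 2, 3 or 4 of every group (0.127, 0.0292 and 0.0307). *Dusp1* was the one member of WT BAT highest at ZT 22, with 50.6, 41.8, 20.7 and 15.9 CPM, against 12.2, 12.8, 14.2 and 14.1 at ZT 10. Its ZT 22 samples were widely spread and all above those of ZT 10. The fitted peak of *Dusp1* lay at ZT 23.0 in WT BAT (adjusted p = 0.000692, lost without replicate 1 or 2 at 0.0771 and 0.0324), and no rhythm was called in FANKO BAT (adjusted p = 0.281).

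**Figure D3:**
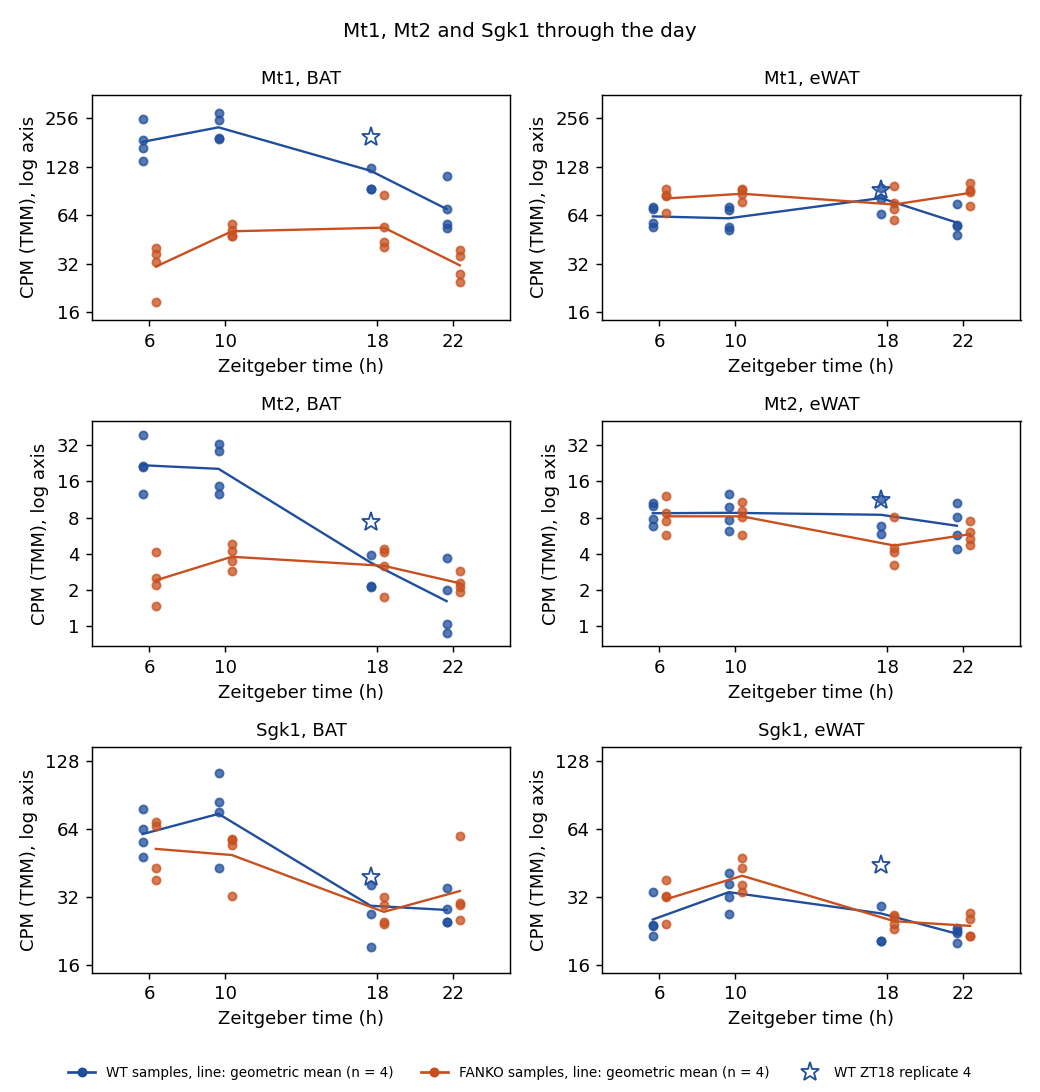
CPM of *Mt1*, *Mt2* and *Sgk1* (log axis) against Zeitgeber time in hours, drawn as above, with the star for WT ZT 18 replicate 4. In BAT the WT points of *Mt2* fall from 12.7 to 39.3 CPM at ZT 6 to 0.887 to 3.7 at ZT 22, and the FANKO points stay between 1.48 and 4.81.

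In eWAT no difference of rhythm between genotypes was called for any of these genes, and several differed in level. Rhythms were called for 2 of 10 members in WT eWAT, *Tsc22d3* and *Klf9* (9.38% of all genes), and for 2 of 10 in FANKO eWAT, *Fkbp5* and *Tsc22d3* (6.77%). The direct test of rhythms called 0 of 10 members with edgeR (1.15% of all genes), with 0 at an unadjusted p under 0.05, and 0 with DESeq2 or limma-voom. Leaving out WT ZT 18 replicate 4, it again called 0, with 3 members at an unadjusted p under 0.05 (2.44% of all genes called), while calls of rhythm rose to 4 in WT eWAT (12.7% of all genes), with *Fkbp5* and *Hsd11b1* added, and stood at 2 in FANKO eWAT (8.35%). The amplitude was lower in FANKO eWAT for 5 of 10 members (54.7% of all genes), and for 7 of 10 without that sample (57.5%).

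*Fkbp5* in WT eWAT held 27.9, 80.9, 42.3 and 50.9 CPM at ZT 6, 92.2, 111, 62.4 and 63.8 at ZT 10, 141, 64.4, 76.4 and 145 at ZT 18, and 51.4, 49.4, 56.6 and 51.2 at ZT 22. In FANKO eWAT it held 20.3, 23.1, 21.4 and 22.5 CPM at ZT 6, 54.5, 33.3, 32.8 and 30 at ZT 10, 50.7, 63.2, 56.8 and 93.4 at ZT 18, and 30.6, 34.3, 39.5 and 40.7 at ZT 22. Both genotypes were highest at ZT 18 and lowest at ZT 6, and FANKO samples lay below all WT samples at each time but ZT 18. The amplitude was 1.09 ± 0.44 in WT and 1.55 ± 0.20 in FANKO eWAT, and the test of their rhythms gave an adjusted p of 0.67. The FANKO rhythm was called (adjusted p = 0.00321), and the WT rhythm, with a wider spread between samples, was called only without WT ZT 18 replicate 4 (0.0186 with it and 0.00228 without). The FANKO call was lost without replicate 1, 2 or 3 of every group (0.0223, 0.0129 and 0.0295).

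*Tsc22d3* rose from ZT 6 to ZT 18 in both genotypes of eWAT. WT eWAT held 94.3, 97.6, 101 and 58.5 CPM at ZT 6, 185, 222, 161 and 125 at ZT 10, 286, 212, 237 and 345 at ZT 18, and 184, 180, 178 and 190 at ZT 22. FANKO eWAT held 46.7, 42.3, 45.4 and 42.8 CPM at ZT 6, 122, 88.6, 69.5 and 79.9 at ZT 10, 86.2, 115, 115 and 114 at ZT 18, and 54.1, 63, 74.2 and 76.4 at ZT 22. Every FANKO sample was below every WT sample of the same time. Amplitudes were 1.63 ± 0.24 and 1.27 ± 0.11, with rhythms called in WT (adjusted p = 3.0e-05) and FANKO eWAT (0.000662), both with a fitted peak in the early dark phase, ZT 16.2 and ZT 15.1. The FANKO call was lost without replicate 2 or 3 of every group (0.021 and 0.0106). *Klf9* was called in WT eWAT at an adjusted p of 0.00964, which was not held without replicate 1, 2 or 3 (0.131, 0.0553 and 0.0217). The metallothioneins had no called rhythm in eWAT of either genotype (adjusted p from 0.169 to 0.953), and *Mt2* samples ran from 4.42 to 12.7 CPM in WT and from 3.22 to 12.2 in FANKO eWAT over the whole day.

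The effect of genotype on rhythm differed between the depots for 3 of the 10 members (2.09% of all genes), *Fkbp5* (adjusted p = 0.000783), *Mt1* (0.00709) and *Mt2* (9.3e-05), with all 64 samples and without WT ZT 18 replicate 4 (3.17% of all genes). When a replicate number was left out of every group, *Mt2* was called each time (adjusted p from 0.000265 to 0.00774), *Fkbp5* only without replicate 3 (0.00617, and 0.01 to 0.0404 without the others) and *Mt1* at no time (0.0121 to 0.132). For *Fkbp5* the fitted peak-to-trough amplitude was 5.10 log2 units in WT BAT and 0.49 in FANKO BAT, against 1.76 and 1.88 in eWAT. Without WT ZT 18 replicate 4 the fitted amplitude was 3.43 in WT BAT and 1.55 in WT eWAT. The cosine also reaches beyond the sampled times, and the highest and lowest time-point means of WT BAT differed by 3.02. For *Zbtb16* the difference between depots was not called (adjusted p = 0.0686).

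Mean levels over the day were lower in FANKO mice for most members in BAT. Of the 10 members, 7 were called lower and 0 higher in FANKO BAT (67.0% of all genes were called, 33.9% lower and 33.1% higher), so the share called was near that of all genes while all calls had 1 direction. The called members were *Nr3c1*, *Hsd11b1*, *Tsc22d3*, *Zbtb16*, *Klf9*, *Mt1* and *Mt2*, and the median log2 difference of the 10 was −0.65 beside 0.00 over all genes. Without WT ZT 18 replicate 4, *Fkbp5* (log2 0.61, adjusted p = 0.000152) and *Dusp1* (0.36, 0.0057) were called higher in FANKO BAT, against 0.31 (0.175) and 0.37 (0.0107) with all samples (67.5% of all genes called without it). In eWAT 4 of 10 members were called lower and 2 higher (50.3% of all genes were called, 22.8% lower and 27.6% higher). The lower ones were *Nr3c1*, *Fkbp5*, *Tsc22d3* and *Zbtb16*, and the higher ones were *Hsd11b1* and *Mt1*, with a median over the 10 of −0.25 beside −0.02 over all genes. These counts are on the TMM scale, where 50.6% of the calls over all genes were lower in FANKO BAT and 45.2% in FANKO eWAT. With library size scaling the median log2 difference of all genes was 0.58 in BAT and −0.27 in eWAT (15.1% and 78.2% of calls lower). Relative to 0 this scaling turned the signs of *Nr3c1*, *Tsc22d3* and *Sgk1* in BAT and of *Sgk1* and *Dusp1* in eWAT. On that scale 3 members were called higher and 3 lower in BAT, where *Zbtb16* (−0.33, adjusted p = 0.14) and *Hsd11b1* (−0.15, 0.147) were no longer called, and 1 was called higher and 6 lower in eWAT. The share of mitochondrial counts moved with genotype too, from a median of 24.6% in WT BAT (16.8 to 40.7%) to 14.7% in FANKO BAT (7.48 to 24.7%), and from 6.55% (3.88 to 10.7%) to 10.7% (6.11 to 14.6%) in eWAT, and its part in these differences was not tested. With RLE factors 47.0% and 53.7% of calls were lower, no member changed sign, 1 member was called higher in BAT, and *Mt1* was not called in eWAT.

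**Figure D4:**
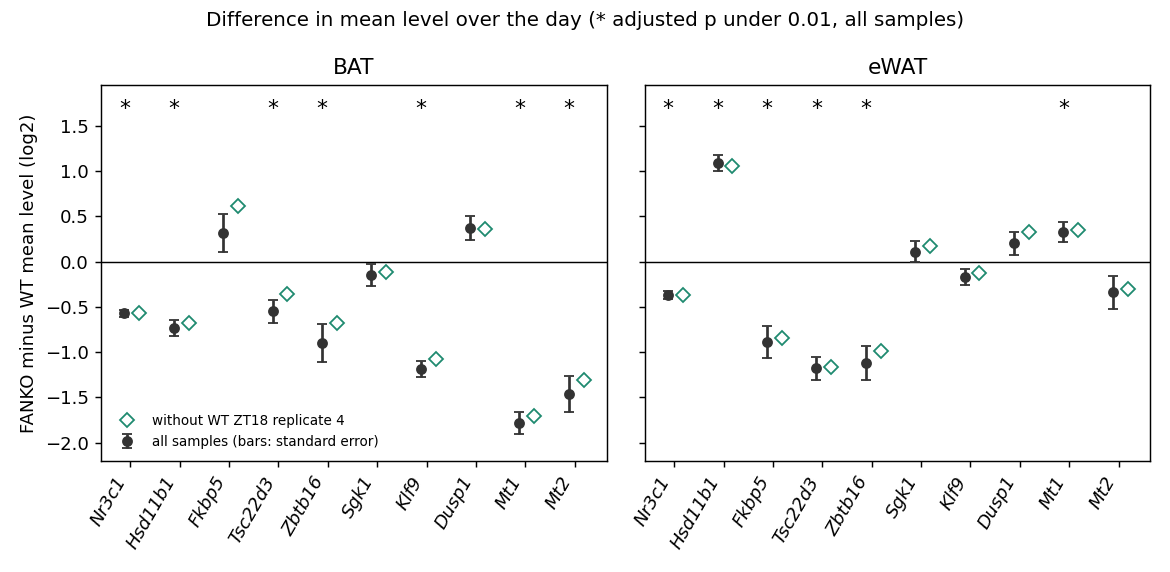
FANKO minus WT mean level over the day in log2 units for each member in BAT (left) and eWAT (right), with standard errors from the edgeR model. Open diamonds are without WT ZT 18 replicate 4, and asterisks mark an adjusted p under 0.01 with all samples. *Hsd11b1* and *Mt1* lie below 0 in BAT and above 0 in eWAT, at −0.73 and −1.78 against 1.09 and 0.33.

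*Nr3c1*, the receptor itself, changed little over the day. In BAT it ran from 196 to 307 CPM (median 249) over the 16 WT samples and from 150 to 191 (median 165) over the 16 FANKO samples, without overlap. In eWAT it ran from 269 to 375 CPM (median 338) in WT and from 227 to 308 (median 260) in FANKO mice, and the 16 samples of each overlapped, although at each time point all FANKO samples were below all WT samples. The mean level was lower by 0.57 in BAT (SE 0.04, adjusted p = 3.4e-19) and by 0.37 in eWAT (SE 0.04, 1.4e-11) on the log2 scale, a difference between depots of −0.20 ± 0.06 (adjusted p = 0.00164) that was not called with RLE factors or DESeq2 (−0.09 each, 0.141 and 0.121) and turned with library size scaling (0.63). No rhythm of *Nr3c1* was called in any of the 4 depot and genotype combinations (adjusted p from 0.0128 to 0.358), and its amplitude was at most 0.30 ± 0.09, in WT BAT.

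*Hsd11b1*, the enzyme that regenerates active glucocorticoid from its inert form inside the cell, went in opposite directions in the depots. In BAT the 16 WT samples ran from 137 to 329 CPM (median 188) and the 16 FANKO samples from 81.5 to 148 (median 117). In eWAT the order was turned, with 96.1 to 293 CPM (median 149) in WT and 256 to 421 (median 330) in FANKO mice. At each time in BAT all FANKO samples were below all WT samples, and in eWAT they were above them at each time but ZT 18, where the WT samples held 293, 169, 245 and 119 CPM and the FANKO samples 313, 381, 338 and 288. The mean level was 1.65-fold lower in FANKO BAT (log2 −0.73 ± 0.09, adjusted p = 1.5e-10) and 2.13-fold higher in FANKO eWAT (1.09 ± 0.09, 5.3e-16). With library size scaling the BAT difference was −0.15 (adjusted p = 0.147) and not called. The effects differed between the depots by −1.82 ± 0.13 (adjusted p = 1.6e-19). At ZT 18 in eWAT the difference was called with all samples (log2 0.68, adjusted p = 0.00343) and not without WT ZT 18 replicate 4 (0.49, 0.0318).

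*Klf9*, a zinc-finger transcription factor, fell in BAT and showed no called change in eWAT. The 16 WT samples of BAT ran from 79.3 to 239 CPM (median 101) and the 16 FANKO samples from 35.1 to 72.8 (median 48.2), without overlap. In eWAT the ranges were 65.7 to 138 CPM (median 91.5) and 68.4 to 125 (median 82.7), which overlapped almost entirely. The mean level was 2.28-fold lower in FANKO BAT (log2 −1.19 ± 0.09, adjusted p = 5.4e-18), against −0.17 ± 0.09 (adjusted p = 0.0937) in eWAT, and the depots differed by −1.02 ± 0.13 (2.5e-10). At ZT 18 in BAT the values were 95, 101, 79.3 and 239 CPM in WT and 47.3, 44.1, 52.1 and 45.6 in FANKO mice, so replicate 4 lay far above the other WT samples and all 4 above the FANKO samples. The rhythm of *Klf9* in WT BAT, highest at ZT 10, was called only without replicate 4 (adjusted p = 0.0178 with it and 0.00075 without).

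**Figure D5:**
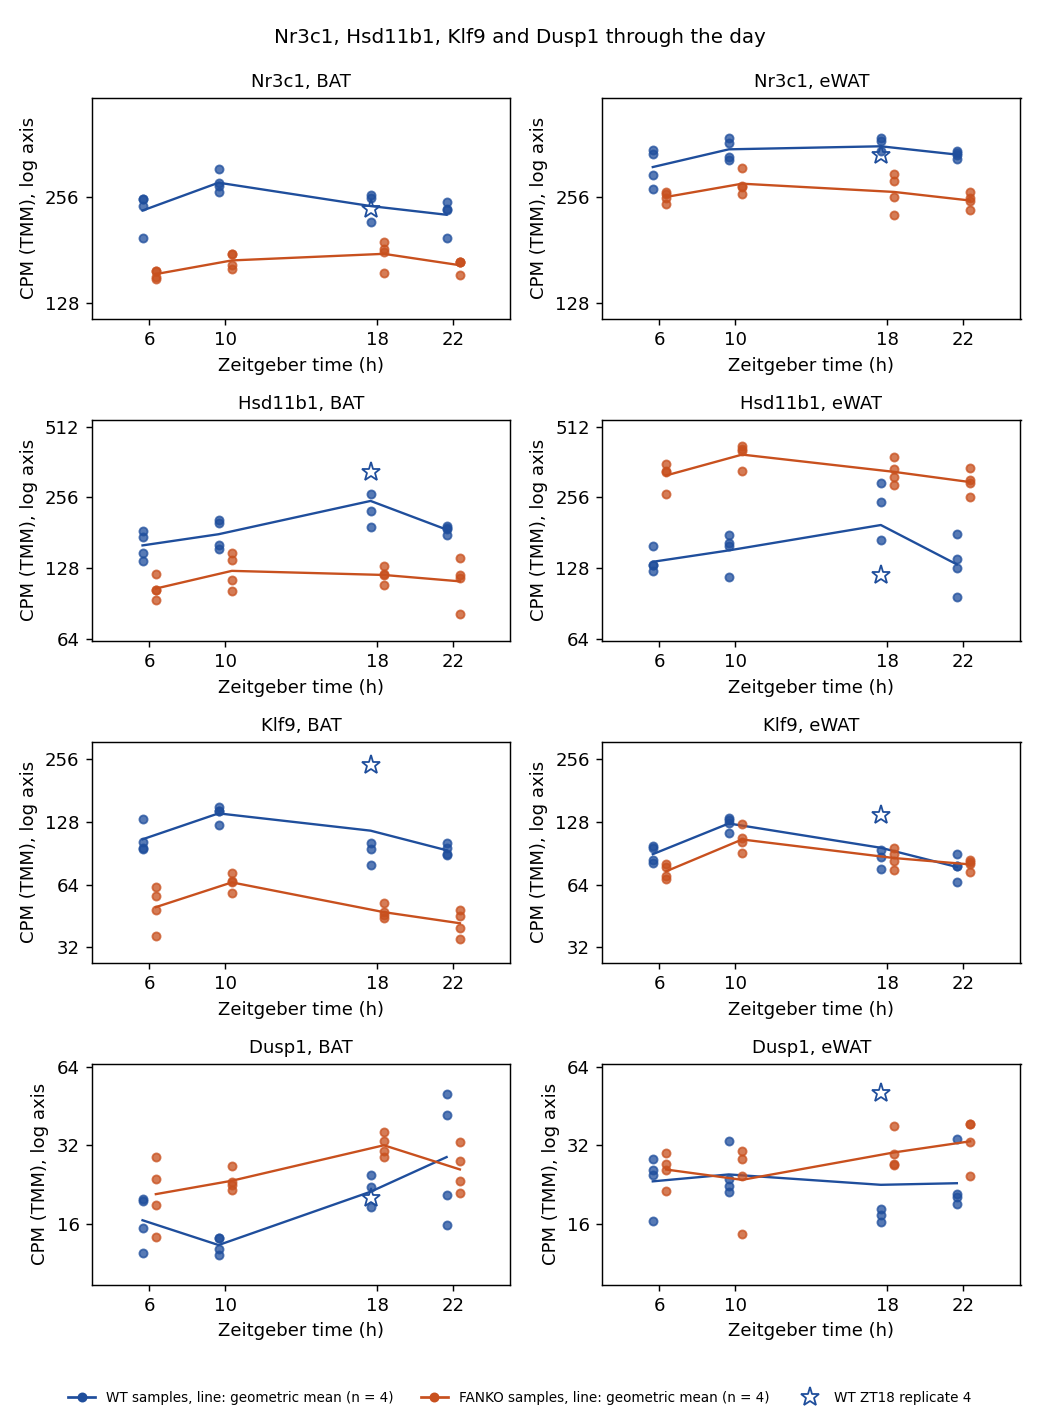
CPM of *Nr3c1*, *Hsd11b1*, *Klf9* and *Dusp1* (log axis) against Zeitgeber time in hours in BAT (left) and eWAT (right), with points for samples, lines for geometric means and a star for WT ZT 18 replicate 4. FANKO points of *Hsd11b1* lie under the WT points in BAT (medians 117 and 188 CPM) and mostly over them in eWAT (330 and 149).

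The remaining targets differed in mean level as follows. *Mt1* was 3.43-fold lower in FANKO BAT (log2 −1.78 ± 0.12, adjusted p = 5.8e-21) and 1.26-fold higher in FANKO eWAT (0.33 ± 0.11, 0.00978), where 16 WT samples of 48.6 to 94.1 CPM overlapped with 16 FANKO samples of 59.9 to 101. The eWAT call of *Mt1* was lost with DESeq2, with RLE factors and without any 1 of the replicate numbers (adjusted p from 0.0104 to 0.12). *Mt2* was 2.75-fold lower in FANKO BAT (−1.46 ± 0.20, 2.2e-09), with −0.34 ± 0.18 (adjusted p = 0.0935) in eWAT. *Fkbp5* was 1.85-fold lower in FANKO eWAT (−0.89 ± 0.18, 1.7e-05). The same direction held for *Tsc22d3*, 1.46-fold lower in FANKO BAT (−0.55 ± 0.13, 0.000175, and −0.36 without WT ZT 18 replicate 4) and 2.26-fold lower in FANKO eWAT (−1.18 ± 0.13, 9.9e-12). *Zbtb16* was 1.87-fold lower in FANKO BAT (−0.90 ± 0.21, 0.000113, and −0.68 without that sample) and 2.17-fold lower in FANKO eWAT (−1.12 ± 0.19, 1.7e-06), where no FANKO sample (28.5 to 55.4 CPM) reached a WT sample (57.1 to 195, or 57.1 to 121 without WT ZT 18 replicate 4). *Sgk1* was not called in either depot (−0.15 ± 0.12 in BAT and 0.11 ± 0.12 in eWAT). The effect of genotype on the mean level differed between depots for 7 of the 10 members (64.3% of all genes). It was lower in BAT than in eWAT for *Nr3c1*, *Hsd11b1*, *Klf9*, *Mt1* and *Mt2* and higher for *Fkbp5* (1.20 ± 0.27) and *Tsc22d3* (0.63 ± 0.18). With library size scaling the depot difference was not called for *Klf9* (−0.20, adjusted p = 0.187) or *Mt2* (−0.30, 0.309), and the call for *Tsc22d3* was lost without replicate 1 or 2 (0.0109 and 0.0458) and that for *Mt2* without replicate 4 (0.0221).

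By time point, 21 of 40 tests of the members were called in BAT (45.8% over all genes and times) and 13 of 40 in eWAT (21.4%). At ZT 6 in BAT 5 members were called lower and 1, *Fkbp5*, higher (48.2% of all genes were called, 23.9% lower and 24.4% higher). At ZT 10 in BAT 4 were called lower and 0 higher (45.7%, with 22.4% lower and 23.3% higher). At ZT 18 in BAT 7 were called lower and 0 higher (44.0%, with 22.5% lower and 21.5% higher). At ZT 22 in BAT 4 were lower and 0 higher (45.3%, with 22.7% lower and 22.6% higher). In eWAT *Hsd11b1* was called higher at all 4 times, and the lower calls were 3 at ZT 6 (27.0% of all genes called, 10.1% lower and 16.9% higher), 2 at ZT 10 (24.5%, with 8.46% lower and 16% higher), 2 at ZT 18 (13.6%, with 5.10% lower and 8.54% higher) and 2 at ZT 22 (20.6%, with 8.02% lower and 12.6% higher). Without WT ZT 18 replicate 4, 25 of the 40 tests were called in BAT, 6, 7, 6 and 6 in order of time (49.8, 47.3, 42.2 and 47.1% of all genes), and 16 in eWAT, 5, 5, 2 and 4 (29.3, 26.8, 11.3 and 22.7%). Calls added in BAT were *Dusp1* at ZT 10 and *Fkbp5* at ZT 22, both higher (edgeR adjusted p = 0.00353 and 0.00413). *Zbtb16* at ZT 10 and ZT 22 and *Hsd11b1* at ZT 10 were added as lower. In eWAT *Zbtb16* at ZT 6, ZT 10 and ZT 22 and *Fkbp5* at ZT 10 were added as lower. Counting samples instead, all FANKO samples lay below all WT samples of BAT for 5 members at ZT 6 (24.9% of all genes), 6 at ZT 10 (25.7%), 6 at ZT 18 (20.9%) and 4 at ZT 22 (23.8%). They lay above all WT samples for 2, 1, 1 and 1 members (25.4, 26.7, 20.8 and 24.8%). In eWAT they lay below for 5, 4, 3 and 4 members (14.1, 15.7, 8.19 and 12.9%) and above for 1, 2, 0 and 1 (21.6, 22.2, 13.5 and 16.4%). *Nr3c1* lay below at all 4 times in both depots, *Tsc22d3* and *Zbtb16* in eWAT, and *Hsd11b1*, *Klf9* and *Mt1* in BAT.

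The makeup of the depots moved with genotype in the same samples, and in bulk tissue fewer cells of a type cannot be told apart from less RNA per cell. In BAT all 5 macrophage markers were called higher in FANKO mice, and their summed level ran from 61.9 to 119 CPM (median 69.9) in WT and from 408 to 1070 (median 597) in FANKO samples. All 4 T cell markers were also higher, with sums of 0.317 to 2.10 CPM (median 1.3) and 16.4 to 70.2 (median 31.3). All 5 adipocyte markers were lower, from a median sum of 11600 CPM (range 10000 to 13100) to 6240 (4590 to 8080). The 4 brown adipocyte markers had a median sum of 6650 CPM (4220 to 9740) in WT and 2270 (1240 to 3240) in FANKO BAT, with *Ucp1* and *Cidea* called lower. The 5 stromal markers were higher (medians 665 and 1480 CPM, ranges 382 to 1130 and 1150 to 2110), and 3 of 4 endothelial markers were lower (medians 467 and 343). Of 14 immediate early genes, which respond within minutes to handling and other stimuli, 12 were called higher in FANKO BAT and 0 lower (33.1% and 33.9% of all genes), and their sum ran from 105 to 180 CPM in WT and from 230 to 381 in FANKO samples. *Fos* and *Atf3* led them, at medians of 0.582 and 1.41 CPM in WT and 13.0 and 32.4 in FANKO BAT. The part of these changes in the lower members of FANKO BAT was not tested.

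In eWAT the sums of the macrophage markers (383 to 598 CPM, median 515, in WT and 376 to 682, median 512, in FANKO samples) and of the adipocyte markers (medians 13600 and 14600) overlapped between genotypes, with 3 of 5 macrophage markers called higher and 3 of 5 adipocyte markers called lower and 1 higher. The 4 white adipocyte markers had a median sum of 2770 CPM (1390 to 3210) in WT and 789 (648 to 1240) in FANKO eWAT, 3 of them called lower and *Trim29* higher. The 4 brown adipocyte markers, at a low level, had median sums of 13.2 CPM (8.51 to 23.0) and 49.0 (36.5 to 78.4), with only *Cidea* called higher. All 5 stromal markers were called lower (medians 3060 and 1590 CPM, ranges 2170 to 3770 and 1300 to 1890), and 3 of 4 T cell markers higher (median sums 1.99 and 6.99 CPM). The immediate early genes had 3 called higher and 3 lower (medians 298 and 256 CPM). The part of these changes in the member differences of eWAT was not tested. In WT ZT 18 replicate 4 of BAT the stromal sum was the lowest of the 4 samples (382 CPM against 622 to 1130) and the skeletal muscle sum the highest (397 against 1.09 to 203), while the macrophage sum was 71.0 (61.9 to 119 in the other 3) and the immediate early genes 180 (124 to 160). The brown markers of that sample summed to 7690 CPM (4220 to 5590 in the other 3) and the white markers to 102 (178 to 221). In WT ZT 18 replicate 4 of eWAT the stromal sum was 2170 CPM (2670 to 3360 in the other 3) and the white sum 1670 (2620 to 3210). Its immediate early genes summed to 344 CPM (251 to 275), and its adipocyte sum of 15900 lay within the others (12200 to 17600). The part of these in the high values of these samples was not tested.

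Genes that supply, chaperone or clear the hormone changed in both directions. Of 12 hormone-handling genes, 2 were called higher and 5 lower in FANKO BAT (median log2 difference −0.12), and 5 higher and 3 lower in FANKO eWAT (median −0.00). The share called was thus 58.3% in BAT, below the 67.0% of all genes, and 66.7% in eWAT, beside 50.3%. *H6pd*, which makes the cofactor for the *Hsd11b1* enzyme, was lower by 0.82 in FANKO BAT (SE 0.05, adjusted p = 1.4e-20), from a median of 321 to 172 CPM. *Nr3c2*, the mineralocorticoid receptor, was lower by 0.62 (SE 0.07, 7.0e-12), from 38.6 to 24.4 CPM. *Abcb1a*, a membrane pump that exports steroids, was higher by 0.68 in FANKO BAT (SE 0.07, 8.4e-14) and lower by 0.47 in FANKO eWAT (SE 0.06, 9.6e-10). *Hsd11b2*, the enzyme that inactivates glucocorticoids, was called higher in FANKO BAT at a very low level (medians 0.305 and 0.561 CPM). *Nrip1*, a nuclear receptor corepressor, was lower by 0.85 in FANKO eWAT (SE 0.09, 5.8e-13), and the chaperone genes *Stip1* and *Hsp90aa1* were higher there by 0.48 and 0.31.

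Chaperones of the receptor were rhythmic in both genotypes of BAT. Of the 12 hormone-handling genes, 7 were called rhythmic in WT BAT and 6 in FANKO BAT (13.9 and 2.84% of all genes). In eWAT the numbers were 7 and 3 (9.38 and 6.77%). The rhythms differed between genotypes for 2 in BAT, *Hsp90aa1* and *Stip1* (2.76% of all genes), and 0 in eWAT (1.15%). *Stip1*, a cochaperone of HSP90, had an amplitude of 1.5 ± 0.06 in WT BAT, highest at ZT 18, and 0.64 in FANKO BAT. *Hsp90aa1* had 1.43 ± 0.15, highest at ZT 22, and 0.72, and *Hsp90ab1* had 0.95 ± 0.13, highest at ZT 18, and 0.72. The WT BAT count fell to 5 (14.7% of all genes) when WT ZT 18 replicate 4 was left out, with *H6pd* (adjusted p = 0.00464 with it and 0.0382 without) and *Ptges3* lost. In eWAT *Stip1*, *Fkbp4* and *Ptges3* were highest at ZT 22 in WT mice, with amplitudes of 0.65, 0.62 and 0.48, and 0.25, 0.31 and 0.06 in FANKO mice.

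The 28 further receptor targets were lower in FANKO mice more often than higher. In BAT 5 were called higher and 14 lower (median log2 difference −0.44, beside 0.00 over all genes), and in eWAT 4 higher and 15 lower (−0.40, beside −0.02). The share called was 67.9% in each depot, near the 67.0% of all genes in BAT and above the 50.3% in eWAT. Leaving out WT ZT 18 replicate 4 gave 21 calls in BAT (67.5% of all genes) and 19 in eWAT (49.5%). *Pck1*, a gene of glyceroneogenesis, was lower by 4.00 in FANKO BAT (SE 0.25, adjusted p = 6.1e-22), from a median of 4260 to 130 CPM, and by 1.27 in FANKO eWAT (SE 0.22, 2.2e-06), from 1310 to 539. *Gpx3*, a secreted glutathione peroxidase, was lower by 3.48 in FANKO BAT (SE 0.17, 2.0e-26), from 470 to 48.7 CPM. *Hif3a* was lower by 1.79 in FANKO eWAT (SE 0.22, 3.0e-10). The genes that rose most were *Lcn2*, an iron-carrier-binding lipocalin, and *Zfp36*, an mRNA decay factor, in BAT (log2 3.42 ± 0.38 and 0.99 ± 0.10), and *Pdk4*, a pyruvate dehydrogenase kinase, and *Cdkn1a*, a cell cycle inhibitor, in eWAT (1.37 ± 0.19 and 1.08 ± 0.17).

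Rhythms were called for 16 of these 28 genes in WT BAT and 4 in FANKO BAT (13.9 and 2.84% of all genes). In eWAT the numbers were 11 and 5 (9.38 and 6.77%). The rhythms differed between genotypes for *Lpin1* and *Cdkn1a* in BAT (2.76% of all genes) and for *Angptl4* and *Cdkn1a* in eWAT (1.15%). *Cdkn1a* had an amplitude of 2.58 ± 0.62 in WT BAT, highest at ZT 18, and 0.44 in FANKO BAT, and in eWAT 2.60 ± 0.25, highest at ZT 22, and 1.08. *Lpin1*, a phosphatidate phosphatase, had 1.16 ± 0.20 in WT BAT, highest at ZT 22, and 0.17 in FANKO BAT, and *Rgs2*, a regulator of G protein signalling, 2.71 ± 0.65 and 0.59. Leaving out WT ZT 18 replicate 4 moved the highest time in WT BAT from ZT 18 to ZT 22 for *Cdkn1a* (amplitude 2.24) and *Rgs2* (2.49). It gave 15 and 6 rhythmic genes in BAT (14.7 and 3.99% of all genes). In WT BAT *Cd163* (adjusted p = 0.00465 to 0.0146) and *Sult1a1* (0.000378 to 0.0239) were lost and *Angptl4* was added. In eWAT 15 and 11 were then rhythmic (12.7 and 8.35%). A rhythm difference was then called for 4 genes in each depot (3.62% of all genes in BAT and 2.44% in eWAT). Of these genes, *Pck1*, *Gpx3*, *Cdkn1a* and *Pdk4* are among those more than 2-fold above the other samples in WT ZT 18 replicate 4 of BAT.

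Of 7 other metal-responsive genes, 4 had enough counts to be tested. The zinc exporter *Slc30a1* was higher in FANKO BAT by 0.53 (SE 0.06, adjusted p = 1.4e-12) and in FANKO eWAT by 0.32 (SE 0.06, 1.8e-06), and the importer *Slc39a14* by 0.29 (SE 0.08, 0.00195) and 0.78 (SE 0.09, 1.8e-11). In BAT 3 of the 4 were called higher and 0 lower (67.0% of all genes were called, 33.1% higher and 33.9% lower). The share called was thus near that of all genes, and *Mt1* and *Mt2* were lower in the same samples. Rhythms were called for 4 of 4 in WT BAT and 1 in FANKO BAT (13.9 and 2.84% of all genes). They differed between the genotypes for *Slc30a1* and *Slc39a10* (2.76% of all genes). The WT call of *Slc39a14* was lost without WT ZT 18 replicate 4 (amplitude 0.57 to 0.25, adjusted p = 0.00375 to 0.262), and its FANKO rhythm was then called (0.0117 to 0.000104). *Slc30a1* was highest at ZT 6 in WT BAT, as *Mt2* was, with an amplitude of 0.61 ± 0.09 and 0.18 in FANKO BAT. Others were highest in the dark phase of WT BAT, *Slc39a10* at ZT 18 (1.55 ± 0.05, and 0.60 in FANKO BAT) and *Mtf1* at ZT 22 (0.46 ± 0.20, and 0.32). The list thus had no common time.

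Between the depots of WT mice, 8 of 10 members were called different in mean level, 4 higher and 4 lower in BAT (73.7% of all genes, 32.7% higher and 41.1% lower). *Fkbp5* was 6.20-fold lower in BAT than in eWAT (log2 −2.63 ± 0.20, adjusted p = 2.6e-18), *Zbtb16* 2.89-fold, *Tsc22d3* 2.35-fold and *Nr3c1* 1.38-fold lower. *Mt1* was 2.14-fold higher in BAT (1.10 ± 0.11, 3.9e-13), and *Sgk1* 1.65-fold, *Hsd11b1* 1.23-fold and *Klf9* 1.20-fold. With library size scaling the signs of *Sgk1*, *Klf9* and *Hsd11b1* turned (log2 −0.02, −0.48 and −0.43), so their order between depots depended on the scaling. *Hsd11b1* was not called without WT ZT 18 replicate 4 (log2 0.22, adjusted p = 0.0157). *Klf9* was not called with DESeq2, limma-voom, RLE factors or no filter on low counts (adjusted p = 0.0138, 0.0145, 0.0158 and 0.0158), or without any 1 of the replicate numbers (0.0154 to 0.051).

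Levels were compared between genes as CPM per kilobase of exonic length. In WT BAT the median was highest for *Mt1* (123), followed by *Hsd11b1* (44.3), *Nr3c1* (32.4), *Klf9* (21.0), *Mt2* (16.9), *Tsc22d3* (16), *Sgk1* (8.34), *Dusp1* (5.77), *Zbtb16* (5.24) and *Fkbp5* (0.99). In WT eWAT the order was *Mt1* (53.9), *Nr3c1* (44.0), *Tsc22d3* (41.9), *Hsd11b1* (35.1), *Klf9* (19.0), *Zbtb16* (15.2), *Mt2* (13.6), *Fkbp5* (6.66), *Dusp1* (6.60) and *Sgk1* (4.88). Each gene overlapped in range over the 16 samples with the next gene in its order, in both depots. These ranges pool the time points, and whether neighbours differed within the same libraries was not tested.

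Samples that share a genotype, time point and replicate number in the 2 depots were compared, since a hormone in the blood reaches both depots. The labels do not say that such samples came from the same mouse. Over all genes, same-numbered WT and FANKO samples, from different mice, also matched best in 18 of 32 pairs, against 17 of 32 between depots. Permutations within genotype and time point cannot tell a hormone from another factor that samples of a number share. The deviations of 32 pairs from their group means correlated with Pearson r = 0.60 for *Tsc22d3* (permutation p = 0.00063, Spearman rho = 0.61, permutation p = 0.0009), 0.58 for *Fkbp5* (0.00337, rho 0.66, permutation p = 0.00069), and 0.69 for *Klf9* (0.00646, rho 0.61, permutation p = 0.00185). *Zbtb16* had r = 0.73 (permutation p = 0.0307, rho 0.56, permutation p = 0.00932). The other 6 of the 10 members computed had r from −0.14 (*Hsd11b1*) to 0.42 (*Sgk1*), with permutation p from 0.0545 to 0.818. The median r over all genes was 0.08, and 2.34% of genes were at or above that of *Fkbp5*. Leaving out the 2 samples farthest from the median gave r = 0.59 for *Tsc22d3*, 0.51 for *Fkbp5*, 0.46 for *Klf9* and 0.43 for *Zbtb16*. Without WT ZT 18 replicate 4 in both depots, r was 0.58 for *Tsc22d3* and 0.61 for *Fkbp5*, and it dropped to 0.36 for *Zbtb16* and 0.35 for *Klf9* (permutation p = 0.214 and 0.0508), where Spearman rho was 0.43 and 0.41 (permutation p = 0.0471 and 0.0365).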

How the data were processed

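The 10 genes and the wider lists were chosen with earlier results of these data known, so no list is independent evidence of its direction. Total RNA depleted of ribosomal RNA was made into stranded libraries, read by paired-end sequencing, and aligned with STAR 2.5.3a to GRCm38.p5, per the submitters' processing notes. The authors deposited whole-number counts of reads per gene from featureCounts 1.5.3, 1 column per sample, neither normalized nor pooled. The strand and multi-mapping settings of the counting are not given in the sources used here. All 64 columns were used, and 0 columns of other samples were present. Groups came from depot, genotype and time point in the labels.

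Counts were analysed with edgeR 4.0.16 in R 4.3.3. The filterByExpr function kept 20249 genes, and libraries were scaled by TMM. A quasi-likelihood model over all 64 samples had a mean, a cosine and a sine (period 24 h) per depot and genotype. A second model had 1 coefficient per group for differences at single time points. P values were adjusted over all genes tested (Benjamini-Hochberg), with a threshold of 0.01. CPM were computed from TMM-scaled libraries, and log2 CPM with a prior count of 2. Amplitudes and their standard errors came from time-point means of log2 CPM and their replicates. The scripts were tested on simulated counts. Permutation tests drew 100000 permutations of the numbers within genotype and time point, two-sided, with scipy 1.17.1. Total counts ran from 6117343 to 30544847 per sample (median 15826651), and p values cover only the spread between these samples, since the labels say nothing more of the origin of the replicates.

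All 10 members were named. Of each wider list, at most 2 genes that rose and 2 that fell most among those called with the same direction at all 4 time points of a depot, and at most 3 with the smallest p for rhythm in WT mice, were named, and *Nampt* as the targeted gene. Alternatives were DESeq2 1.42.0, limma-voom (limma 3.58.1), RLE factors, library size scaling, no filter on low counts, blocks for the replicate number, a factor for time in place of the cosine, and leaving out each replicate number. Leaving out WT ZT 18 replicate 4, the count of genes over 2-fold above the next sample, and Dixon's criterion on CPM, were added after the data were seen. Gene positions, exonic lengths and overlaps came from the GRCm38 annotation, and promoters from RefSeq.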

Additional observations from a re-analysis of the deposited data

Results flagged for a closer look

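In 8 of the 160 combinations of member and group, 1 of the 4 samples stood apart by Dixon's criterion on the log2 CPM scale, which chance alone meets in about 1 of 20 groups. The low samples were *Nr3c1* in FANKO BAT at ZT 22 (replicate 1, 154 CPM, next 167), *Tsc22d3* in WT eWAT at ZT 6 (replicate 4, 58.5, next 94.3) and in FANKO eWAT at ZT 18 (replicate 1, 86.2, next 114), *Sgk1* in FANKO BAT at ZT 10 (replicate 3, 32.1, next 54.1) and *Zbtb16* in FANKO eWAT at ZT 22 (replicate 3, 35.7, next 41.4). The high samples were *Fkbp5* in FANKO eWAT at ZT 10 (replicate 1, 54.5, next 33.3) and *Dusp1* in WT eWAT at ZT 18 (replicate 4, 50.7, next 18.2) and at ZT 22 (replicate 1, 34.0, next 20.9). On log2 CPM, 1 of the 8, the *Dusp1* value at ZT 18, belongs to WT ZT 18 replicate 4. The count depended on the scale. On CPM without logs, 14 combinations met the criterion and 6 belonged to WT ZT 18 replicate 4, namely *Fkbp5*, *Tsc22d3*, *Zbtb16* and *Klf9* in BAT and *Zbtb16* and *Dusp1* in eWAT.

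In 10 tests the effect of genotype differed between BAT and eWAT, 7 of mean level (64.3% of all genes called) and 3 of rhythm (2.09%). The share of members called for mean level was thus near that of all genes. For the mean level, the FANKO effect in BAT minus that in eWAT was −0.20 for *Nr3c1*, 1.20 for *Fkbp5*, 0.63 for *Tsc22d3*, −1.02 for *Klf9*, −2.11 for *Mt1*, −1.13 for *Mt2* and −1.82 for *Hsd11b1* on the log2 scale. For the rhythm, the adjusted p of the edgeR test was 0.000783 for *Fkbp5*, 0.00709 for *Mt1* and 9.3e-05 for *Mt2*. Of these, only *Mt2* stayed called for rhythm whichever replicate number was left out.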

How the results depend on the processing

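Library size scaling changed most. It turned the signs of the FANKO effect to 0.02 for *Nr3c1*, 0.02 for *Tsc22d3* and 0.42 for *Sgk1* in BAT, to −0.15 for *Sgk1* and −0.05 for *Dusp1* in eWAT, and of the difference of that effect between depots to 0.63 for *Nr3c1* and 0.57 for *Sgk1*. In WT mice it turned the difference of BAT from eWAT to −0.02 for *Sgk1*, −0.48 for *Klf9* and −0.43 for *Hsd11b1*. With it, members called rhythmic numbered 0 in FANKO BAT and 1 in eWAT of each genotype, and 13 of 40 time-point tests were called in BAT. Time point as a factor gave 0, 1 and 1 for the same 3 rhythms, and limma-voom 2 members with a rhythm difference in BAT, where *Fkbp5* (adjusted p = 0.0118) and *Zbtb16* (0.102) were lost. Without WT ZT 18 replicate 4 in both depots, 4 members were rhythmic in FANKO BAT and 4 in WT eWAT.

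Leaving out each replicate number in turn gave 6 to 7 rhythmic members in BAT of WT mice and 0 to 2 in BAT of FANKO mice, and 1 to 3 and 0 to 2 in eWAT. The rhythm difference was called for 2 to 3 members in BAT, where *Fkbp5* was lost without replicate 4 (adjusted p = 0.0143), and for 0 in eWAT. Mean levels gave 7 to 8 calls in BAT and 5 in eWAT, where *Mt1* was lost each time, and 5 to 6 for the difference of the effect between depots, 1 to 2 for that of rhythm, and 6 to 7 between depots of WT mice. Time-point tests called were 19 to 24 in BAT and 8 to 13 in eWAT, and depot correlations with a permutation p under 0.01 were 0 to 2, against 3 with all numbers. The difference of *Mt2* between depots of WT mice was −0.38 without replicate 4 and turned to 0.03 without replicate 1 and 0.19 without replicate 2, uncalled each time. Where no cause is named, the cause was not tested.

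Same-numbered samples were checked for pairing by the correlation of their deviations over all genes. Of 32 pairs of BAT and eWAT samples 12 were over 0.1 and 17 correlated best with their own number, and of 32 pairs of WT and FANKO samples 15 and 18, each among 4 candidates. Not every pair was over 0.1 and the labels give no shared origin, so the numbers were not taken to pair samples, and the best matches are a hint from the data, not the design. With the replicate block as a term, members called numbered 7, 2, 2 and 2 for the rhythms, 4 and 0 for rhythm differences, 7 and 6 for mean levels, 21 in BAT and 15 in eWAT for time points, and 7 and 3 for differences between depots, with 8 between depots of WT mice. A replicate block shared by the depots gave 7, 4 and 8 for the last 3.

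The counts limit *Mt2* most, with 7 to 451 reads per sample, and 4 times of day cannot fix the shape of a rhythm. CPM are relative to the rest of a library, so a change common to most transcripts is not seen.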
